A study of Mus musculus with 11 samples.

Results

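The genes described here are 10 chaperones, folding enzymes and regulators of the endoplasmic reticulum (ER): Hspa5, Manf, Creld2, Sdf2l1, Dnajb9, Hsp90b1, Pdia4, Pdia6, Xbp1 and Herpud1. They were taken by exact gene symbol from the platform annotation, as 10 of the 19946 genes measured, with the transcript cluster of highest mean level used for each gene. A transcript cluster is the set of probes that the array treats as 1 transcript. All 10 symbols were found, and Pdia4 alone had more than 1 transcript cluster.

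RNA from the rectal mucosa of 11 mice was measured on Mouse Gene 1.0 ST arrays from Affymetrix, with 1 array for each mouse. The mutant mice, named α6ΔIEC-TAM, were designed to lose Itga6, which encodes the integrin α6 subunit, from intestinal epithelial cells once tamoxifen is given, and the promoter driving the recombinase is not given in the sources used here. The groups were mutant mice given tamoxifen (mutant tamoxifen, n = 4, 3 females and 1 male), mutant mice given NaCl (mutant NaCl, n = 4, 3 females and 1 male) and wild type mice given tamoxifen (control tamoxifen, n = 3, 1 female and 2 males). Gavage started at 8 weeks of age, with tamoxifen at 10 mg per day on alternate days over 5 days or NaCl in its place, and the mucosa was taken at 10 weeks, 15 days after the first gavage. No group of wild type mice given NaCl was analysed here. Levels are log2 values from RMA, which removes background, gives all arrays the same distribution and summarises the probes of each transcript cluster, so 1 unit is a doubling and levels of different genes cannot be compared.

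Itga6 went against the label of the tamoxifen group. Its level was 11.82 ± 0.0782 in mutant tamoxifen mice, 11.41 ± 0.0937 in mutant NaCl mice and 11.39 ± 0.204 in control tamoxifen mice (mean ± SD, n = 4, 4 and 3). Itga6 was thus 1.34-fold higher in mutant tamoxifen than in control tamoxifen mice (limma, adjusted p = 0.0095) and 1.33-fold higher than in mutant NaCl mice (adjusted p = 0.0053), with every mutant tamoxifen array above all others. Whole mucosa also holds cells outside the epithelium, and the array positions of the Itga6 probes relative to the deleted part were not examined, so this value does not check the deletion. Every direction below is therefore between arrays labelled mutant tamoxifen and arrays with the other labels.

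The ER is where secreted and membrane proteins are folded, and the rectal mucosa holds goblet cells and plasma cells, both heavy secretors. When unfolded proteins accumulate, the sensors encoded by Ern1, Eif2ak3 and Atf6 start the unfolded protein response, which raises chaperones, slows translation and increases the disposal of misfolded proteins. The transcription factors ATF6 and XBP1 act through a promoter element, the ER stress response element (ERSE), which joins a CCAAT box bound by NF-Y to the letters CCACG.

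The promoter sequences of 9 of the 10 genes were matched by symbol in RefSeq (GRCm38.p6), each covering 250 bases before to 50 bases after the annotated start. Manf was not matched. The ERSE letters, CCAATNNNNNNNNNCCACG, searched on both strands, were found in 4 of the 9 (Hspa5, Creld2, Hsp90b1 and Pdia6) and in 39 of all 32851 promoters (0.119%). The windows that hold the match are shown because these 4 genes were among those past the threshold in both comparisons below. They run 5′ to 3′ along the gene, with the letters of the match in capitals, from chr2:34772010-34772058 (plus strand) for Hspa5, chr15:88819505-88819553 (plus strand) for Creld2, chr10:86705518-86705671 (minus strand) for Hsp90b1 and chr12:17266476-17266524 (plus strand) for Pdia6.
Hspa5: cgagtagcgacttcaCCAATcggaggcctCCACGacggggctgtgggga
Creld2: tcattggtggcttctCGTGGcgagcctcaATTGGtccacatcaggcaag
Hsp90b1: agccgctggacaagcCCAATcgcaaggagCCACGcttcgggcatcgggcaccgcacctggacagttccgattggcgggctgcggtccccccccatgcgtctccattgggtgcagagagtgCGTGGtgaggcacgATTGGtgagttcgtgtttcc
Pdia6: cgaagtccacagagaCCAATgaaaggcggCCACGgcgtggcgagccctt
The match lies 65 to 47 bases before the start in Hspa5 and 98 to 80 bases before it in Pdia6. In Creld2 it lies on the opposite strand, 126 to 108 bases before the start, so the capitals read as the reverse complement. Hsp90b1 holds 2 matches, 1 on the gene's own strand at 212 to 194 bases and 1 on the opposite strand at 107 to 89 bases before the start.

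A related arrangement, called ERSE-II and written ATTGGNCCACG, was found in 12 of the 32851 promoters (0.0365%), among them Herpud1. It is shown for contrast, since Herpud1 did not pass the threshold in any comparison. The window is chr8:94386362-94386402 (plus strand), and the match lies 52 to 42 bases before the start.
Herpud1: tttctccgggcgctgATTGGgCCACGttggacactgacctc
The letters TGACGTGG, known as the unfolded protein response element, were in 222 promoters (0.676%) and in none of the 9. The shorter CCACG, which is part of both ERSE and ERSE-II, was in 8 of the 9, all but Xbp1, against 32.8% of all promoters. These are matches of letters in a fixed window and were not tested as binding sites.

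Of the 10 genes, 6 were higher in mutant tamoxifen than in control tamoxifen mice: Hspa5, Manf, Creld2, Hsp90b1, Pdia4 and Pdia6, by 1.21-fold (Pdia4) to 1.5-fold (Pdia6). Sdf2l1, Xbp1, Dnajb9 and Herpud1 did not pass the threshold, and no member was lower. Calls were made with limma over all 19946 genes, with a term for sex and a threshold of 0.05 on the adjusted p. Among all genes 24.6% passed in either direction and 12.9% were higher. The median log2 difference of the 10 genes was 0.32, against -0.02 over all genes. In 8 of the 10 every mutant tamoxifen array lay above every control tamoxifen array, which was so for 17.3% of all genes. The count of 6 changed when single arrays were left out. It was 1 without replicate 3 of mutant tamoxifen, 1 without replicate 1 of control tamoxifen and 2 without replicate 2 of control tamoxifen. Manf was the 1 gene left in each of the first 2 cases, and in the third Manf was higher and Dnajb9 lower. Replicate 3 is the only male of mutant tamoxifen, and replicate 2 the only female of control tamoxifen. Without either array, the sex term rests on the other groups alone, here and wherever either is left out below. Shares of all genes called in fits without 1 array are given below only for replicate 4 of mutant NaCl. For the others, here and in the wider lists, a general drop in calls cannot be told apart from one in these genes. Among females alone, where control tamoxifen has 1 array, the median log2 difference of the 10 genes was 0.31.

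Against mutant NaCl, the group of the same genotype label without tamoxifen, 6 genes were also higher in mutant tamoxifen mice: Hspa5, Manf, Creld2, Sdf2l1, Hsp90b1 and Pdia6, by 1.19-fold (Hsp90b1) to 1.48-fold (Pdia6). None was lower past the threshold. Here 23.2% of all genes passed in either direction and 12.5% were higher, and the median log2 difference was 0.27 for the 10 genes and -0.01 for all genes. Every mutant tamoxifen array lay above every mutant NaCl array for 4 of the 10 (14.2% of all genes) and below every one for Dnajb9 (12.6% of all genes). The count of 6 was 3 without replicate 3 of mutant tamoxifen and 3 without replicate 2 of mutant NaCl. Without replicate 4 of mutant NaCl 3 were higher and Dnajb9 lower. With a term for the mean of goblet cell markers 2 were higher, and with one for plasma cell markers Manf was higher and Dnajb9 lower. Both comparisons use the same 4 mutant tamoxifen arrays, so their values stand side by side and do not count as separate evidence.

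Mutant NaCl and control tamoxifen mice, which differ in both genotype and treatment, were compared next. Their log2 differences lay between -0.10 (Herpud1) and 0.13 (Dnajb9), with a median of 0.05 against -0.01 over all genes. None of the 10 passed the threshold in limma, where 0 of 19946 genes did (0.0%), and none had an unadjusted p under 0.05, as 1623 genes did (8.14%). No array set of 1 group lay wholly above or below the other in any of the 10, which was so for 2.82% of all genes upward and 5.32% downward. Replicate 4 of mutant NaCl moved these values: without it the median of the 10 was 0.18, Pdia6 gave 0.29 and Dnajb9 0.29, and still none passed. With 4 and 3 arrays the 95% intervals were wide, from -0.33 to 0.37 for Pdia6 and from -0.21 to 0.02 for Herpud1.

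**Figure D1:**
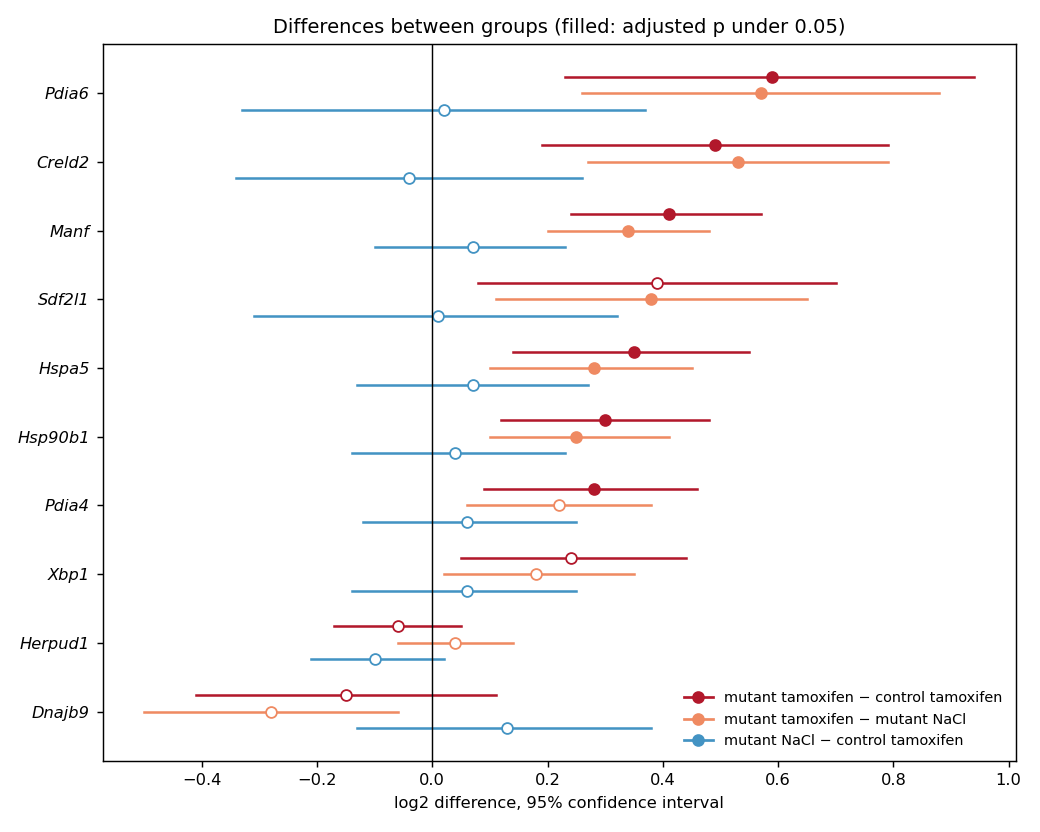
Log2 difference between groups (x axis) for the 10 genes (y axis), with 95% confidence intervals from limma and filled points where adjusted p was under 0.05. Differences from control tamoxifen and from mutant NaCl lie to the right of 0 for 8 genes, led by Pdia6 (0.59 and 0.57), while Dnajb9 lies to the left (-0.15 and -0.28) and the intervals of mutant NaCl minus control tamoxifen all include 0.

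Hspa5 encodes BiP, the main Hsp70 chaperone of the ER, which also holds the stress sensors inactive. Its level was 12.48, 12.65, 12.56 and 12.36 in mutant tamoxifen mice, 12.25, 12.28, 12.38 and 12.03 in mutant NaCl mice, and 11.95, 12.24 and 12.13 in control tamoxifen mice. All mutant tamoxifen arrays were above the control arrays, and 1 of them lay below the highest mutant NaCl array. The log2 difference was 0.35 ± 0.0911 (SE) from control tamoxifen, or 1.27-fold (95% interval 0.14 to 0.55, limma adjusted p = 0.0194), and 0.28 ± 0.079 from mutant NaCl, or 1.21-fold (adjusted p = 0.0282). The call against control was lost without replicate 3 of mutant tamoxifen (0.22) or replicate 1 or 2 of control tamoxifen (0.30 and 0.39), and that against mutant NaCl when any of 5 single arrays was left out (0.20 to 0.28).

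Hsp90b1 encodes GRP94, the Hsp90 of the ER, which completes the folding of selected clients such as integrins. Its level was 12.39, 12.51, 12.37 and 12.22 in mutant tamoxifen mice, 12.23, 12.18, 12.18 and 11.88 in mutant NaCl mice, and 11.99, 12.03 and 12.05 in control tamoxifen mice. As for Hspa5, the mutant tamoxifen arrays stood clear of control and touched the mutant NaCl range at 1 array. The gene was 1.23-fold higher than in control tamoxifen mice (log2 difference 0.30 ± 0.0823 SE, limma adjusted p = 0.0237) and 1.19-fold higher than in mutant NaCl mice (0.25 ± 0.0715, adjusted p = 0.0268). Leaving out the same 3 arrays as for Hspa5 ended the call against control (0.23 to 0.30), and leaving out any of 5 ended that against mutant NaCl (0.18 to 0.27).

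Sdf2l1 encodes an ER-resident protein that works with BiP and its J-domain partners. Its level was 11.36, 11.03, 11.32 and 10.99 in mutant tamoxifen mice, 10.87, 10.97, 10.89 and 10.46 in mutant NaCl mice, and 10.55, 10.80 and 10.87 in control tamoxifen mice. The 4 mutant tamoxifen arrays were the highest of the 11, with replicate 4 at 10.99 close to the top mutant NaCl array at 10.97. The log2 difference from control tamoxifen was 0.39 ± 0.141 (SE, 95% interval 0.08 to 0.7), which did not pass (limma adjusted p = 0.0695), and that from mutant NaCl, 0.38 ± 0.123, did (adjusted p = 0.0458). The call against mutant NaCl was lost when any of 7 single arrays was left out, with 0.25 without replicate 4 of mutant NaCl and 0.26 without replicate 3 of mutant tamoxifen. The difference from control passed without replicate 4 of mutant tamoxifen (0.45) or replicate 4 of mutant NaCl (0.46).

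Dnajb9 encodes ERdj4, a J-domain partner of BiP that also restrains the sensor IRE1. Its level was 10.09, 10.05, 10.05 and 10.11 in mutant tamoxifen mice, 10.31, 10.46, 10.47 and 10.17 in mutant NaCl mice, and 10.27, 9.97 and 10.46 in control tamoxifen mice. The mutant tamoxifen values were tightly grouped (SD 0.0293, against 0.144 in mutant NaCl and 0.249 in control tamoxifen mice), all were below the mutant NaCl arrays, and they fell within the control range. Neither difference passed: -0.15 ± 0.116 (SE) from control tamoxifen (limma adjusted p = 0.377) and -0.28 ± 0.101 from mutant NaCl (95% interval -0.5 to -0.06, adjusted p = 0.0704). With the mean of plasma cell markers as a further term the differences were -0.34 (adjusted p = 0.047) and -0.44 (adjusted p = 0.0094), both past the threshold. Without replicate 2 of control tamoxifen, at 9.97 the lowest of the 11 arrays, Dnajb9 was lower than control (-0.40, adjusted p = 0.0249) and lower than mutant NaCl (-0.28, adjusted p = 0.0138). It was also lower than mutant NaCl without replicate 3 of control tamoxifen (-0.28, adjusted p = 0.0401) or replicate 4 of mutant NaCl (-0.38, adjusted p = 0.0186), and past the threshold in 7 of 25 other settings in all.

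**Figure D2:**
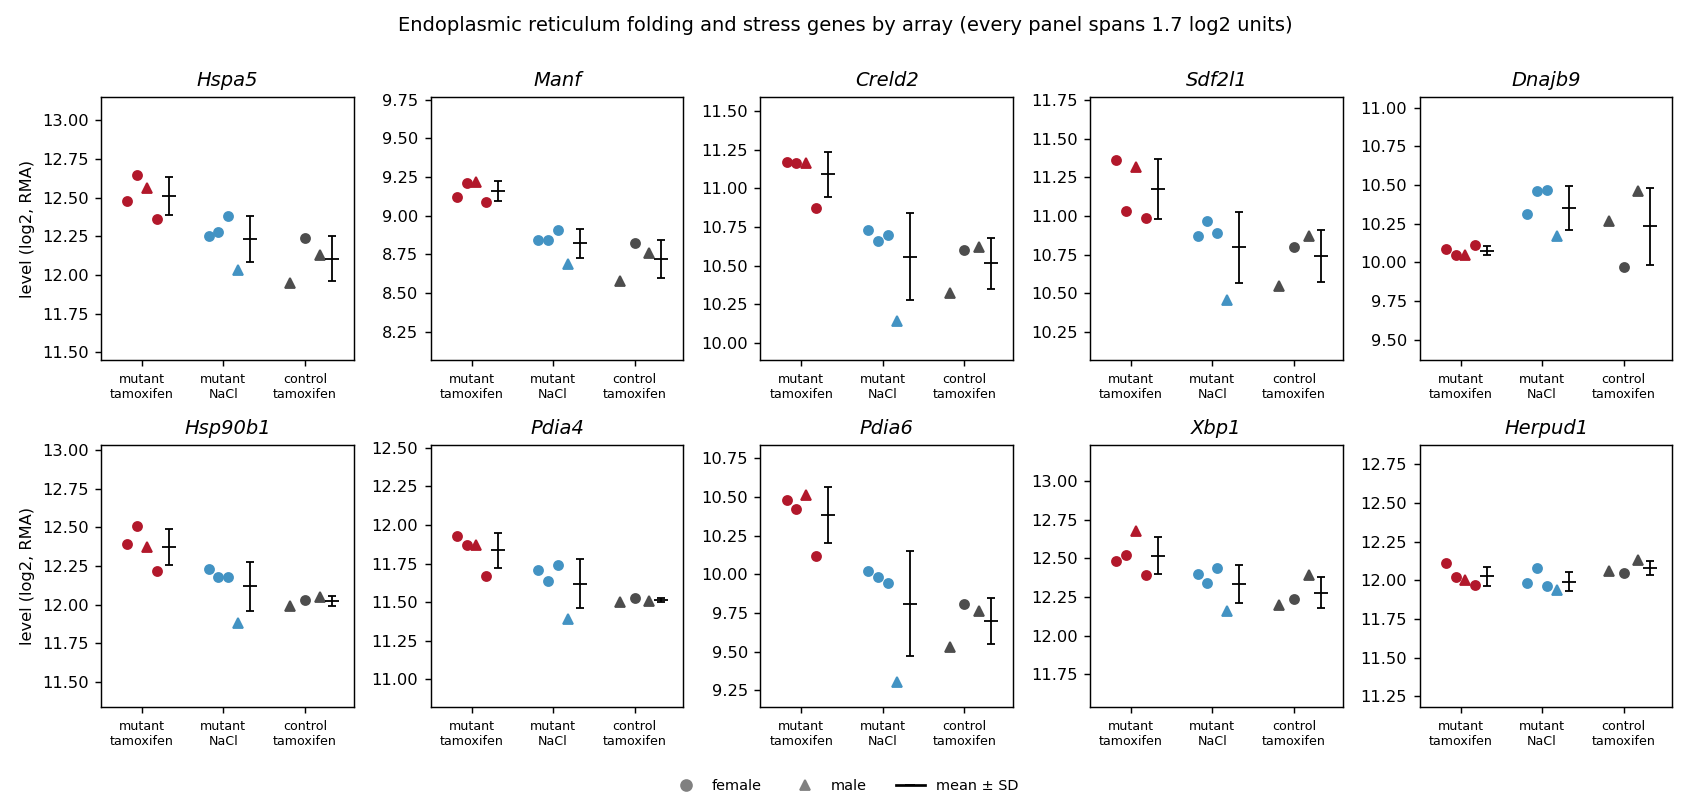
Level (log2, y axis) of each of the 10 genes on every array, by group (x axis), with circles for females, triangles for males and bars for mean ± SD (n = 4, 4 and 3). Mutant tamoxifen arrays are the highest in 8 panels on average, as for Manf (9.09 to 9.22, against at most 8.91 in mutant NaCl and 8.82 in control tamoxifen mice), and not in Dnajb9, while Herpud1 is level and 1 mutant NaCl male is the lowest array of its group in all panels.

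The protein disulfide isomerases form and rearrange disulfide bonds in the ER. Pdia6, also called P5, had the largest difference of the 10 genes in both comparisons. Its level was 10.48, 10.42, 10.51 and 10.12 in mutant tamoxifen mice, 10.02, 9.98, 9.94 and 9.30 in mutant NaCl mice, and 9.53, 9.81 and 9.76 in control tamoxifen mice. Every mutant tamoxifen array lay above all the others. The gene was 1.5-fold higher than in control tamoxifen mice (log2 difference 0.59 ± 0.16 SE, 95% interval 0.23 to 0.94, limma adjusted p = 0.0222) and 1.48-fold higher than in mutant NaCl mice (0.57 ± 0.139, adjusted p = 0.0138). Against control the call was lost without replicate 3 of mutant tamoxifen (0.35) or without replicate 1 or 2 of control tamoxifen (0.54 and 0.55), and against mutant NaCl it held without any 1 array.

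Pdia4, or ERp72, differed less. Its level was 11.93, 11.87, 11.87 and 11.67 in mutant tamoxifen mice, 11.71, 11.64, 11.74 and 11.39 in mutant NaCl mice, and 11.50, 11.53 and 11.51 in control tamoxifen mice. The mutant tamoxifen arrays were all above control, and replicate 4 lay within the mutant NaCl range. It was 1.21-fold higher than in control tamoxifen mice (log2 difference 0.28 ± 0.0838 SE, limma adjusted p = 0.0335), while the difference of 0.22 ± 0.0727 from mutant NaCl missed the threshold (adjusted p = 0.0538). The call against control was lost when any of 7 single arrays was left out (0.19 to 0.29). A second Pdia4 transcript cluster, not used above, had a mean level of 6.54 over all arrays, with 6.55, 6.74, 6.69 and 6.69 in mutant tamoxifen mice, 6.59, 6.59, 6.66 and 6.23 in mutant NaCl mice, and 6.37, 6.30 and 6.49 in control tamoxifen mice.

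Manf and Creld2 encode small ER proteins that are induced by ER stress, and MANF can also be secreted. Manf was 9.12, 9.21, 9.22 and 9.09 in mutant tamoxifen mice, 8.84, 8.84, 8.91 and 8.69 in mutant NaCl mice, and 8.58, 8.82 and 8.76 in control tamoxifen mice. The groups did not overlap in either comparison. Manf was 1.33-fold higher than in control tamoxifen mice (log2 difference 0.41 ± 0.0744 SE, 95% interval 0.24 to 0.57, limma adjusted p = 0.00342) and 1.27-fold higher than in mutant NaCl mice (0.34 ± 0.0646, adjusted p = 0.00404), the smallest adjusted p-values of the 10 genes in these comparisons. It was past the threshold in both with any 1 array left out. It was also the only member that stayed higher past the threshold in both comparisons with the plasma cell marker term (adjusted p = 0.0232 and 0.0252).

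Creld2 was 11.17, 11.16, 11.16 and 10.87 in mutant tamoxifen mice, 10.73, 10.66, 10.70 and 10.14 in mutant NaCl mice, and 10.32, 10.60 and 10.62 in control tamoxifen mice. Again no array of the other groups reached the mutant tamoxifen range, although replicate 4 of that group stood apart from the close values of its other 3 arrays. The difference was 1.4-fold from control tamoxifen (log2 difference 0.49 ± 0.136 SE, limma adjusted p = 0.0241) and 1.44-fold from mutant NaCl (0.53 ± 0.118, adjusted p = 0.00889). Against control the call was lost without replicate 3 of mutant tamoxifen (0.31) or without replicate 1 or 2 of control tamoxifen (0.44 each), and against mutant NaCl it held without any 1 array.

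Xbp1 encodes the transcription factor made active when IRE1 splices its mRNA, a step that 1 value per transcript cluster does not separate from the total. Its level was 12.48, 12.52, 12.68 and 12.39 in mutant tamoxifen mice, 12.40, 12.34, 12.44 and 12.16 in mutant NaCl mice, and 12.20, 12.24 and 12.39 in control tamoxifen mice. The lowest mutant tamoxifen array and the highest control array were equal at 2 decimals, and the mutant one was higher before rounding. Neither difference passed: 0.24 ± 0.0882 (SE, 95% interval 0.05 to 0.44) from control tamoxifen (limma adjusted p = 0.0696) and 0.18 ± 0.0766 from mutant NaCl (adjusted p = 0.112). The difference from control passed without replicate 4 of mutant tamoxifen (0.28) or replicate 4 of mutant NaCl (0.30).

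Herpud1 encodes a membrane protein of the ER-associated degradation machinery, which sends misfolded proteins to the proteasome. Its level was 12.11, 12.02, 12.00 and 11.97 in mutant tamoxifen mice, 11.98, 12.08, 11.96 and 11.94 in mutant NaCl mice, and 12.06, 12.05 and 12.13 in control tamoxifen mice. All 3 groups overlapped. The log2 difference was -0.06 ± 0.0516 (SE) from control tamoxifen (limma adjusted p = 0.427) and 0.04 ± 0.0448 from mutant NaCl (adjusted p = 0.604), with 95% intervals of -0.17 to 0.05 and -0.06 to 0.14.

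Sex did not set the 10 genes apart past the threshold. The male minus female term ran from -0.23 (Pdia6) to 0.02 (Dnajb9) on the log2 scale, with limma adjusted p of 0.863 or more. The male mutant tamoxifen array, replicate 3, lay among or above its female neighbours for Manf (9.22), Pdia6 (10.51) and Xbp1 (12.68). The male mutant NaCl array, replicate 4, was the lowest of its group for all 10 genes, with a mean of 10.81 over the 10 against 11.13 to 11.16 on the 3 female arrays. Whether that array differs by sex or as an animal cannot be told apart.

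Within groups, 8 of the 10 genes moved together from mouse to mouse. Each array's deviation from its group mean was compared between genes over the 11 arrays, which share RNA samples and normalisation, so these correlations are a description. Setting Dnajb9 and Herpud1 aside, a division made after their values were seen, Pearson's r of the other 28 pairs ran from 0.64 to 0.98 with a median of 0.80. The closest were Creld2 with Pdia6 (0.98) and Hspa5 with Manf (0.96). The 17 pairs with Dnajb9 or Herpud1 ran from 0.07 to 0.66 with a median of 0.33. Without replicate 4 of mutant NaCl, a setting chosen after seeing the data, the medians were 0.67 (range 0.23 to 0.95) and 0.02 (range -0.32 to 0.60).

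**Figure D3:**
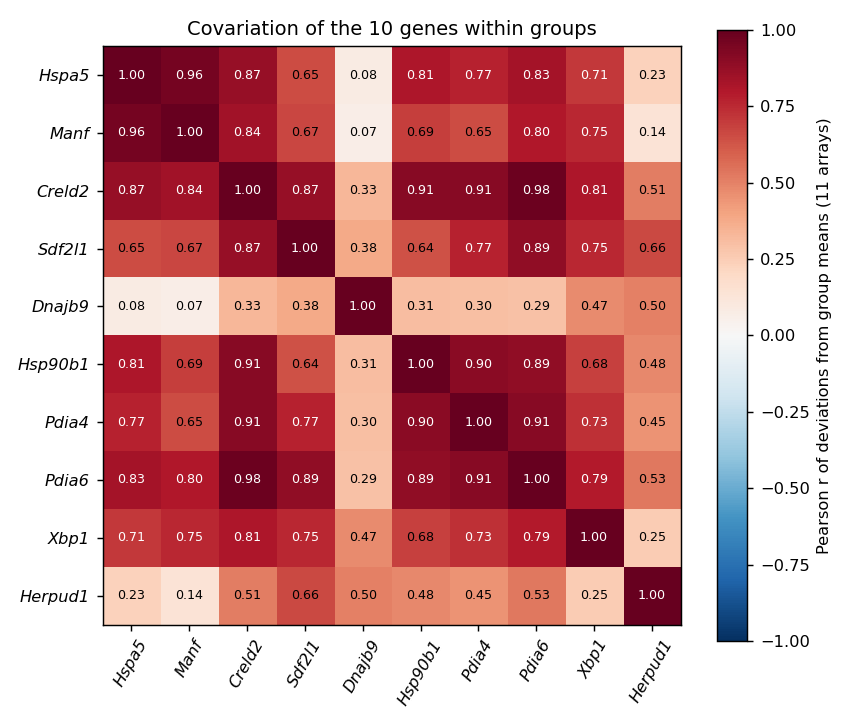
Pearson correlation between the 10 genes (both axes) of each array's deviation from its group mean, over 11 arrays, with the value in each cell. The cells of Dnajb9 and Herpud1 are the palest rows, at most 0.66, while Creld2 and Pdia6 reach 0.98.

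The genes whose within-group deviations followed the mean of the 10 most closely were also identified, over the same 11 arrays. Outside the gene lists used here these were Chid1 (r = 0.978), Misp3 (0.972), Nlk (0.962), 9430038I01Rik (0.957), Mrpl15 (0.957), Tmem129 (0.954), Ndufb10 (0.948) and Usp35 (0.937). None of the 8 was higher past the threshold against control tamoxifen, where Misp3 (-0.41, limma adjusted p = 0.00175) and Usp35 (-0.21, adjusted p = 0.0294) were lower. Against mutant NaCl 1 was higher (Mrpl15, 0.25, adjusted p = 0.0133). Beside these counts, 12.9% of all genes were higher and 11.8% lower against control, and 12.5% were higher against mutant NaCl. Among the wider ER genes the closest were Pdia5 (0.977), Dnajc3 (0.947), Hyou1 (0.939) and Lman1 (0.932). Without replicate 4 of mutant NaCl, r was 0.947 for Chid1, 0.959 for Pdia5 and 0.789 for Lman1.

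The wider machinery of the ER was described with 4 further lists that exclude the 10 genes. Of 31 other folding and oxidation genes, all measured, 15 were higher and 2 lower in mutant tamoxifen than in control tamoxifen mice, and 16 were higher and 1 lower than in mutant NaCl mice. Over all genes 12.9% were higher and 11.8% lower against control, and 12.5% higher and 10.7% lower against mutant NaCl. The median log2 differences of the list were 0.21 and 0.19, against -0.02 and -0.01 over all genes. Higher in both were 12 of them, by 0.16 to 0.74 where called against control, and the shared mutant tamoxifen arrays enter both counts. Agr3, a disulfide isomerase family member, was lower in both (-0.20 and -0.18), and Qsox1, a sulfhydryl oxidase, was lower against control alone (-0.36). The count against control was 6 without replicate 3 of mutant tamoxifen, 11 without replicate 1 and 10 without replicate 2 of control tamoxifen, where the main count in both directions was 17.

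Dnajc10, the ER disulfide reductase ERdj5, had the smallest p of these folding genes against control tamoxifen, with a level of 10.42 ± 0.03 in mutant tamoxifen, 9.78 ± 0.0707 in mutant NaCl and 9.66 ± 0.143 in control tamoxifen mice (mean level ± SD). It was 1.67-fold higher than in control tamoxifen mice (limma adjusted p = 0.000158) and 1.56-fold higher than in mutant NaCl mice (adjusted p = 0.000112). Prdx4, a peroxidase that passes oxidising power to disulfide isomerases, was 1.61-fold and 1.6-fold higher (adjusted p = 0.000828 and 0.000333). Pdia5, a further disulfide isomerase, was 1.56-fold and 1.45-fold higher (adjusted p = 0.00278 and 0.00336). P4hb, the founding disulfide isomerase, was 1.28-fold and 1.36-fold higher (adjusted p = 0.000872 and 0.00011), and its p against mutant NaCl was the smallest of the list. Agr2, which goblet cells need to make mucin, was 1.27-fold and 1.21-fold higher, and Dnajc3, a J-domain co-chaperone, was 1.34-fold and 1.38-fold higher.

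A further list holds genes for entry to and exit from the ER. Of 35 listed, 32 were measured, and 20 were higher and none lower than in control tamoxifen mice, with a median log2 difference of 0.25. Against mutant NaCl 22 were higher and none lower, with a median of 0.24. Over all genes 12.9% and 12.5% were higher in these comparisons, with medians of -0.02 and -0.01. Kdelr3, a receptor that returns chaperones carrying a KDEL signal to the ER, had the largest difference of these lists. Its level was 10.10 in mutant tamoxifen mice, 9.16 in mutant NaCl mice and 9.08 in control tamoxifen mice on average, 1.98-fold higher than in control (log2 difference 0.98 ± 0.145 SE, limma adjusted p = 0.00119) and 1.91-fold higher than in mutant NaCl (0.94 ± 0.126, adjusted p = 0.000653). Kdelr1 gave -0.07 and -0.05 and passed neither test.

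Of the entry machinery, Sec61b, a translocon subunit, gave log2 differences of 0.57 from control tamoxifen and 0.63 from mutant NaCl, and Ostc, of the oligosaccharyltransferase, gave 0.44 and 0.42, all past the threshold. Spcs3, a signal peptidase subunit, was 1.34-fold higher than in control tamoxifen and 1.33-fold higher than in mutant NaCl mice (limma adjusted p = 0.000957 and 0.00045). Sec61a1, the pore of the translocon, was 1.21-fold and 1.18-fold higher, and Ssr3, of the translocon-associated complex, was 1.26-fold and 1.21-fold higher. Srp72, of the signal recognition particle, was 1.18-fold and 1.16-fold higher. Sec23b, of the COPII coat that carries cargo out of the ER, was 1.39-fold and 1.22-fold higher. The count of called genes of this list against control was 12 without replicate 3 of mutant tamoxifen and 13 without replicate 2 of control tamoxifen.

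Sensors and transcription factors of the response form the next list. Of 24 listed, 23 were measured, and 5 were higher and none lower than in control tamoxifen mice (median log2 difference 0.14), and 8 were higher and none lower than in mutant NaCl mice (median 0.16). The shares of all genes called higher were 12.9% and 12.5%, with medians of -0.02 and -0.01. Of the sensors, Ern1 gave -0.02 against control and 0.03 against mutant NaCl, and its epithelial relative Ern2 gave -0.01 and 0.09, with limma adjusted p of 0.211 or more. Eif2ak3, which encodes PERK, gave 0.15 (adjusted p = 0.0816) and 0.14 (adjusted p = 0.0571). Atf6 gave 0.14 against control (adjusted p = 0.147) and was 1.17-fold higher than in mutant NaCl mice (0.23, adjusted p = 0.0147).

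Downstream of PERK, Atf4 was 1.19-fold higher than in control tamoxifen mice (limma adjusted p = 0.0151) and 1.15-fold higher than in mutant NaCl mice (adjusted p = 0.0189). Ddit3, which encodes the stress factor CHOP, gave -0.13 and -0.08 (adjusted p = 0.247 and 0.453). Ppp1r15b, a phosphatase subunit that restores translation, was 1.23-fold and 1.18-fold higher. Among factors related to ATF6, Creb3 was 1.28-fold and 1.18-fold higher and Creb3l3 1.44-fold and 1.48-fold higher, while Creb3l1 was 1.26-fold higher than in control (adjusted p = 0.0254) and gave 0.08 against mutant NaCl (adjusted p = 0.535). The count of 5 against control was 2 without replicate 3 of mutant tamoxifen and 2 without replicate 2 of control tamoxifen, and the count of 8 was 5 without replicate 4 of mutant NaCl.

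The last list covers ER-associated degradation, the process Herpud1 belongs to. Of 26 listed genes 25 were measured, with 6 higher and none lower than in control tamoxifen mice and 4 higher and none lower than in mutant NaCl mice, and median log2 differences of 0.07 and 0.08. Over all genes 12.9% and 12.5% were higher, with medians of -0.02 and -0.01, so the count of 4 against mutant NaCl is near that of genes in general. Derl2, a channel component, was 1.29-fold higher than in control (limma adjusted p = 0.00102) and 1.16-fold higher than in mutant NaCl (adjusted p = 0.00653). Vcp, the ATPase that extracts substrates, was 1.26-fold and 1.31-fold higher, its partner Ubxn4 1.21-fold and 1.16-fold higher, and Edem3, a mannosidase, 1.18-fold and 1.23-fold higher. Ube2j1, a ubiquitin-conjugating enzyme, and Nploc4, a cofactor of VCP, were 1.13-fold and 1.14-fold higher than in control and did not pass against mutant NaCl. The count of 6 was 3 without replicate 3 of mutant tamoxifen and 3 without replicate 2 of control tamoxifen. In none of the 4 lists did a gene pass between mutant NaCl and control tamoxifen mice.

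**Figure D4:**
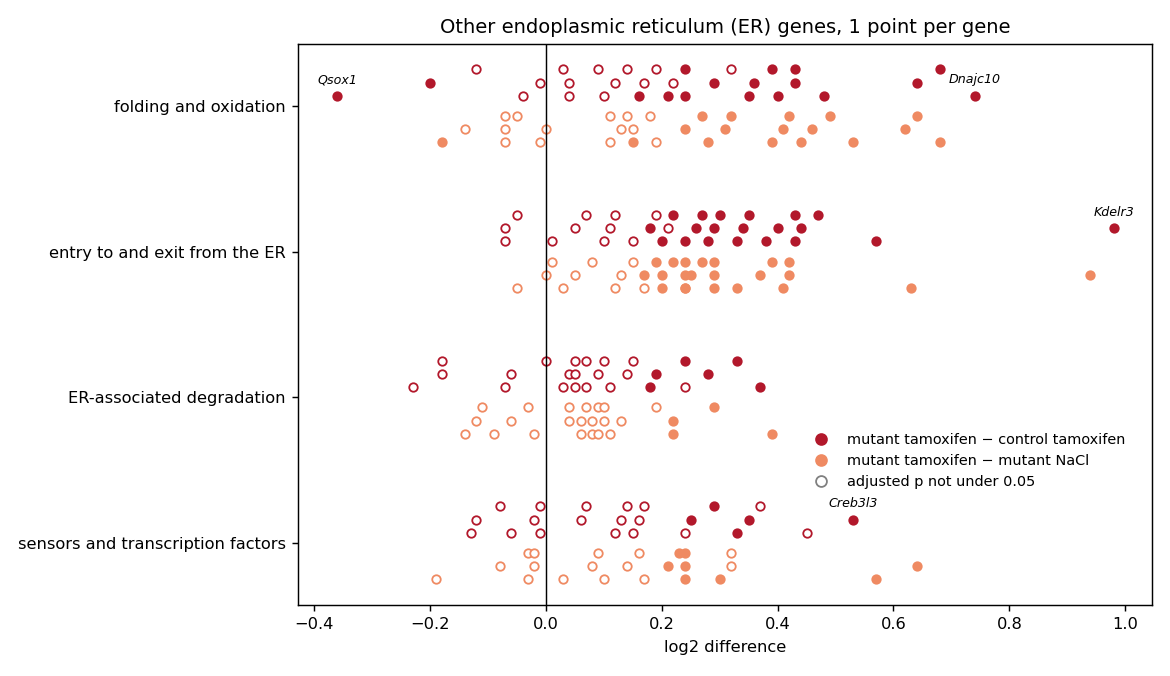
Log2 difference (x axis) of every measured gene of the 4 wider ER lists (y axis), 1 point per gene, for mutant tamoxifen minus control tamoxifen and mutant tamoxifen minus mutant NaCl, filled where adjusted p was under 0.05. Vertical spread within a list only separates points. Called genes lie to the right of 0 apart from Agr3 and Qsox1, Kdelr3 lies farthest out (0.98 and 0.94), and the degradation list has medians of 0.07 and 0.08.

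The mucosa is a mixture of cells, and in such bulk RNA fewer cells of a type and less RNA per cell cannot be told apart. Markers of secretory cells were set beside the 10 genes. The mean level of 8 plasma cell markers was 9.30 to 9.57 in mutant tamoxifen mice. It was 8.77 to 9.37 in mutant NaCl mice and 8.84 to 9.29 in control tamoxifen mice. This mean leaves out Xbp1 and Derl3 because ER lists hold them, and it keeps other genes of ER proteins, such as Mzb1. Of the 10 plasma cell markers, 3 were higher in both comparisons: Sdc1 (0.44 and 0.35), Prdm1 (0.77 and 0.69) and Fkbp11 (0.35 and 0.41). Over all genes 12.9% were higher against control tamoxifen and 12.5% against mutant NaCl. The other 7, Xbp1 among them, were short of the threshold in both. Mzb1, an ER protein that helps assemble immunoglobulins, gave 0.40 against control tamoxifen and 0.43 against mutant NaCl. Pou2af1, a B-lineage coactivator, gave 0.39 and -0.05, and Derl3, of ER-associated degradation, gave 0.24 and 0.19. The transcription factor Irf4 gave 0.14 and 0.06, Jchain, which links secreted immunoglobulins, gave 0.07 and 0.17, and the receptor Tnfrsf17 gave 0.04 and 0.15. All 10 plasma cell markers were above 0 against control and 9 against mutant NaCl. Their medians were 0.30 and 0.19, beside 0.32 and 0.27 for the 10 ER genes and -0.02 and -0.01 for all genes. Xbp1 is counted in both sets. Replicate 4 of mutant NaCl was lowest of its group in these markers too, at 8.77.

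With the plasma cell mean as a further term in limma, 1 of the 10 genes (Manf) was higher and 1 (Dnajb9) lower in each comparison. The median log2 difference of the 10 was 0.19 in each, and 16.1% of all genes were called against control tamoxifen and 16.2% against mutant NaCl. Pdia6 gave 0.35 ± 0.152 (SE, adjusted p = 0.145) against control and 0.37 ± 0.131 (adjusted p = 0.0846) against mutant NaCl under this term. Hspa5 gave 0.31 ± 0.113 (adjusted p = 0.0945) and 0.24 ± 0.0973 (adjusted p = 0.122). All but 1 of the 7 arrays outside mutant tamoxifen had a plasma cell mean below its lowest array, so the term and the group labels overlap. The mean also holds genes of ER proteins such as Mzb1, so the term does not separate plasma cell content from ER gene levels.

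Goblet cell markers moved in both directions. The mean of 9 of them, without Agr2 and Ern2, was 11.55 to 11.97 in mutant tamoxifen mice, 11.51 to 11.72 in mutant NaCl mice and 11.63 to 11.83 in control tamoxifen mice. Of 11 measured, Spink4 (0.69), Spdef (0.42), Agr2 (0.35) and Galnt12 (0.71) were higher than in control tamoxifen mice. Tff3 (-0.60) and Zg16 (-0.22) were lower. Clca1 had the largest difference of the list, -0.96, and did not pass (limma adjusted p = 0.0632). Against mutant NaCl 5 were higher and 2 lower. Over all genes 12.9% were higher and 11.8% lower against control, and 12.5% higher and 10.7% lower against mutant NaCl. Muc2, the main intestinal mucin, gave 0.12 against control, which did not pass, and was higher than in mutant NaCl mice (0.25, limma adjusted p = 0.00495). With this mean as a term, 8 of the 10 ER genes were higher against control tamoxifen (median 0.34) and 2, Manf and Creld2, against mutant NaCl (median 0.18). Over all genes 13.2% and 8.8% were higher under this term.

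Markers of other cell types were counted as well. Over all genes 12.9% were higher and 11.8% lower against control tamoxifen, and 12.5% higher and 10.7% lower against mutant NaCl. The 10 neutrophil markers were all higher in both comparisons, with a mean of 6.83 to 7.44 in mutant tamoxifen, 6.13 to 6.21 in mutant NaCl and 6.14 to 6.33 in control tamoxifen mice. The 12 smooth muscle markers were all lower, with a mean of 11.42 to 11.56 in mutant tamoxifen, 11.84 to 12.13 in mutant NaCl and 11.99 to 12.11 in control tamoxifen mice. Of 14 proliferation genes 14 were higher than in control and 11 than in mutant NaCl, and of 11 absorptive colonocyte markers 8 were lower in each. Of 10 pan-epithelial markers 2 were higher than in control and 4 than in mutant NaCl, with a mean of 12.33 to 12.49 in mutant tamoxifen, 12.23 to 12.30 in mutant NaCl and 12.27 to 12.34 in control tamoxifen mice. Of 8 fibroblast markers 1 was higher than in control, and 4 were higher and 1 lower than in mutant NaCl. Of 10 macrophage and dendritic cell markers 1 was higher and 3 lower than in control, and 1 was higher than in mutant NaCl. The fibroblast and macrophage counts of 1 are near those of genes in general. Squamous markers had no member past the threshold. Their mean was 8.35 to 9.97 in mutant tamoxifen, 8.64 to 9.83 in mutant NaCl and 6.50 to 9.95 in control tamoxifen mice. Their median log2 difference was 1.17 against control tamoxifen and 0.22 against mutant NaCl. The part of neutrophil, smooth muscle, proliferation, absorptive, pan-epithelial, fibroblast, macrophage and squamous content in the differences of the 10 genes was not tested.

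**Figure D5:**
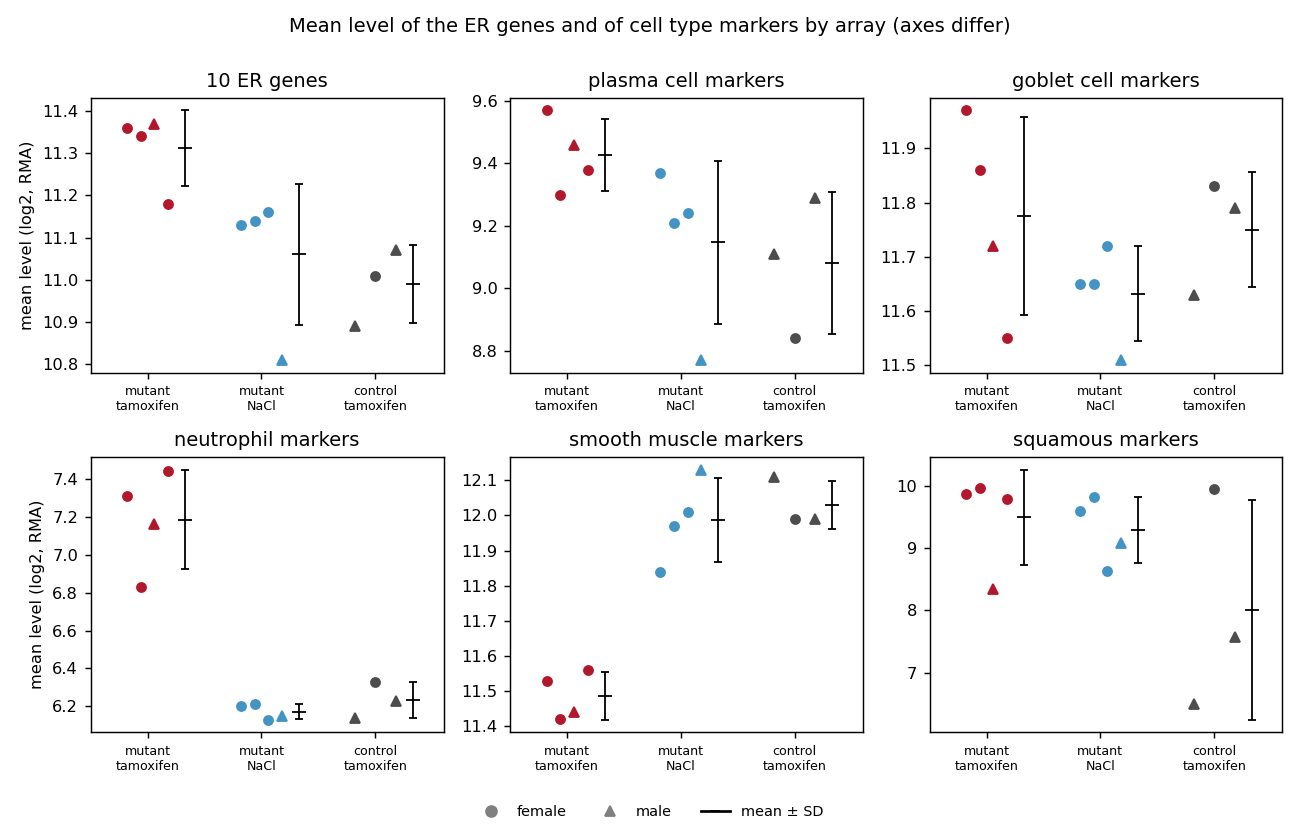
Mean level (log2, y axis, scales differ) of the 10 ER genes and of 5 marker lists on every array, by group (x axis), with circles for females, triangles for males and bars for mean ± SD (n = 4, 4 and 3). The ER gene mean is 11.18 to 11.37 in mutant tamoxifen, 10.81 to 11.16 in mutant NaCl and 10.89 to 11.07 in control tamoxifen mice. In plasma cell markers, mutant tamoxifen arrays (9.30 to 9.57) overlap mutant NaCl (8.77 to 9.37) and lie above control tamoxifen (8.84 to 9.29). In neutrophil and smooth muscle markers, mutant tamoxifen arrays overlap neither of the other groups.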

How the data were processed

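Per the labels, the deposited values are log2 expression values made by the authors with RMA in Affymetrix Expression Console (version 1.1, with images read in Command Console version 2.0, per the series design text). The submitters' processing notes also name Partek, with no role. The genome build and the authors' own tests are likewise not given in the sources used here. Of 35556 transcript clusters, 21797 carried 1 gene symbol in the platform annotation and gave 19946 genes. Symbols were matched to RefSeq (GRCm38.p6). Array medians were 7.29 to 7.35, and the number of arrays limits the precision.

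Groups came from genotype and treatment. Replicate numbers only name arrays. All 11 arrays entered 1 limma fit (version 3.58.1, R version 4.3.3) with a sex term and a variance trend, two-sided. P-values were adjusted by Benjamini-Hochberg across the 19946 genes, with 0.05 as the threshold. No filter on low values was applied, so all 10 members were tested. The steps were tested on simulated data. The genes named were the 10 members, Itga6, the 6 genes with the smallest p against control tamoxifen in each wider ER list plus Ern1, Ern2, Eif2ak3, Atf6, Atf4 and Ddit3, and the 8 genes outside the lists most correlated with the members. Agr3, Qsox1, Kdelr1, Sec61b, Ostc and the marker genes given with values were chosen after their values were seen. Members and lists were chosen with earlier results of these data known. Alternatives changed the sex term, arrays, filter, normalisation, variance model, weights, features, transcript cluster rule and marker terms.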

Additional observations from a re-analysis of the deposited data

Results flagged for a closer look

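Dixon's test for 1 value apart from the rest was applied to the 10 genes in both groups of 4 arrays, 20 groups in all, and chance alone marks about 1 in 20. It marked 4 values. Creld2 at 10.87 on replicate 4 of mutant tamoxifen lay below the other arrays of its group, at 11.16 to 11.17. The other 3 were on replicate 4 of mutant NaCl, the male of that group: Creld2 at 10.14, Hsp90b1 at 11.88 and Pdia6 at 9.30, against lowest values of 10.66, 12.18 and 9.94 on its other arrays. Without that array, 8 of the 10 genes were higher against control tamoxifen, and against mutant NaCl 3 were higher and 1 lower. Over all genes 12.7% were then higher against control tamoxifen and 9.65% against mutant NaCl.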

How the results depend on the processing

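The 10 genes were refitted under 25 other settings, 11 of which leave out 1 array. Against control tamoxifen the main count past the threshold was 6. It was 2 with the plasma cell term (1 higher, 1 lower), where 16.1% of all genes passed, and 1 to 8 when 1 array was left out. The median of 0.32 became 0.19 with the plasma cell term and 0.31 among females alone, where control tamoxifen has 1 array. Over all settings the median was 0.19 to 0.37. Against mutant NaCl the main count was 6. It was 2 with the goblet term, 2 with the plasma cell term and 3 to 7 when 1 array was left out. Between mutant NaCl and control tamoxifen the count was 0 throughout, and the median was -0.02 to 0.18 when 1 array was left out, with 0.18 without replicate 4 of mutant NaCl. Manf kept its call against control tamoxifen in 24 of 25 settings (limma adjusted p up to 0.0662) and against mutant NaCl in all 25. Pdia6, Creld2, Hspa5 and Hsp90b1 kept theirs against control in 20 of 25 each, and Pdia4 in 14. Sdf2l1 kept its call against mutant NaCl in 9.

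Signs turned only for small differences. Dnajb9 against control tamoxifen was 0.11 among females alone, and Herpud1 against mutant NaCl was 0.0 with the plasma cell term. For mutant NaCl against control tamoxifen, Creld2 was 0.04 without a sex term, 0.1 among females and 0.13 with the goblet term, Sdf2l1 was -0.06 and Pdia6 -0.07 with only the arrays compared, and Sdf2l1 was -0.03 and Pdia6 -0.02 with the plasma cell term. With 1 array left out the ranges were -0.1 to 0.18 for Creld2, -0.06 to 0.21 for Sdf2l1, -0.07 to 0.29 for Pdia6, -0.12 to 0.29 for Dnajb9 and -0.02 to 0.17 for Hsp90b1. Against control tamoxifen, the plasma cell term gave 10, 3, 5 and 12 called genes in the wider ER lists. These are folding, sensors, degradation and entry or exit, with main counts of 17, 5, 6 and 20. Against mutant NaCl this term gave 10 for folding and 3 for sensors, where the main counts were 17 and 8. Of all genes, 16.1% and 16.2% were called under it in the 2 comparisons, against 24.6% and 23.2% in the main fit. With the goblet term folding had 10 against mutant NaCl, where 17.2% of all genes were called. The cause of these changes was not tested. No paired analysis was possible because the labels give no replicate numbers that the groups share. The 3 or 4 arrays per group limit the size of difference that could be detected.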

Other observations

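Outside the 10 genes, the ERSE letters were in promoters of 17 measured genes. Calr, the chaperone calreticulin, was higher in mutant tamoxifen than in control tamoxifen mice (log2 difference 0.24, limma adjusted p = 0.0247) and gave 0.18 against mutant NaCl (adjusted p = 0.0524). Dnajc3 was higher in both (0.43 and 0.46), and Acacb, which encodes an acetyl-CoA carboxylase, was lower in both (-0.29 and -0.28). The ER genes Canx, Derl3, Syvn1 and Ero1b hold the letters as well and passed neither test. The median log2 difference of the 17 genes was 0.06 against control tamoxifen and 0.04 against mutant NaCl, near the -0.02 and -0.01 of all genes. ERSE-II was found in 8 further measured genes, among them Dnajb11, a J-domain partner of BiP, which was higher in both comparisons (0.40, adjusted p = 0.0324, and 0.42, adjusted p = 0.0143). Rcl1 was also higher in both (0.30 and 0.21), Nucb1 was lower against control (-0.17, adjusted p = 0.0215) and Lrif1 lower against mutant NaCl (-0.22, adjusted p = 0.0235). The median of the 8 was 0.02 against control and 0.05 against mutant NaCl. These genes were named after their values were seen.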
